A study of Homo sapiens with 5 samples.

Results

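Notch signalling was followed through 10 genes in Rh41 cells depleted of H3F3A transcripts. They were the receptors NOTCH1, NOTCH2 and NOTCH3, the ligands JAG1, JAG2 and DLL1, and HES1, HES6, HEY1 and HEYL, grouped here as targets. The genes were chosen by name, and all 10 were found among the 43714 gene rows of the count tables. Rh41 is an established human line of alveolar rhabdomyosarcoma (ARMS), a childhood sarcoma that expresses muscle transcription factors, and its genotype label is FP-RMS, the fusion-positive form. Cells were transfected by Lipofectamine RNAiMAX with an H3F3A-specific siRNA (3 libraries, replicates 1, 2 and 3) or a scrambled siRNA (2 libraries, replicates 1 and 3), and RNA was taken after 48 hours. H3F3A encodes the histone variant H3.3, as does H3F3B, and the series asks about the part of H3.3 in metastasis. All libraries come from this single cell line, and whether replicates were separate cultures is not labelled. The p-values thus measure only how these libraries vary, which may be technical.

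Notch receptors are single-pass membrane proteins that are activated by ligands of the Jagged and Delta-like families on neighbouring cells. Ligand binding lets a metalloprotease and then gamma-secretase release the intracellular domain of the receptor. That domain enters the nucleus, joins the DNA-binding protein RBPJ and its coactivators of the Mastermind-like family, and turns on the repressor genes of the HES and HEY families. In skeletal muscle, Notch activity is known for holding satellite cells and myoblasts in an undifferentiated state. DLK1 is a noncanonical ligand that lacks the receptor-binding DSL domain of the Jagged and Delta-like proteins, and it has been described mostly as an inhibitor of Notch signalling. A change of DLK1 therefore raises the question of whether HES and HEY transcripts also change, and that question is the one followed here.

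RBPJ binds DNA at sites that carry the letters TGGGAA, most often as GTGGGAA. The RefSeq promoter table, in build GRCh38.p14, had entries for 8 of the 10 genes, each running from 250 bases before to 50 bases after the start site. The 250 bases before the start of HES1, HEYL and HES6 are shown because these genes differ in motif content. As described further on, only HES6 of them was called, and the choice was made after their values were seen. The counts carry no coordinates, so the promoters describe the genes and were not measured. HES1 lies on the plus strand (chr3:194135898-194136147), HEYL on the minus strand (chr1:39639644-39639893) and HES6 on the minus strand (chr2:238240039-238240288). Capitals mark TGGGAA or GTGGGAA on either strand, and on the opposite strand they read TTCCCA or TTCCCAC.
HES1: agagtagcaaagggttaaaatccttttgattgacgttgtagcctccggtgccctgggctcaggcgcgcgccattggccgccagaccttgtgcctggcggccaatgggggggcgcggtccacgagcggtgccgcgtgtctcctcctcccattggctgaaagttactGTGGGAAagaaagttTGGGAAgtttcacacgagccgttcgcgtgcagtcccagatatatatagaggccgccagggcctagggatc
HEYL: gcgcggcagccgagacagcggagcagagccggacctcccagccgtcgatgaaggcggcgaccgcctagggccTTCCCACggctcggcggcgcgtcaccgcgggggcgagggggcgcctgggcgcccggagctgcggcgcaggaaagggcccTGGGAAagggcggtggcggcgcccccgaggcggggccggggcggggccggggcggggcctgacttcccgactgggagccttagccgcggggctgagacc
HES6: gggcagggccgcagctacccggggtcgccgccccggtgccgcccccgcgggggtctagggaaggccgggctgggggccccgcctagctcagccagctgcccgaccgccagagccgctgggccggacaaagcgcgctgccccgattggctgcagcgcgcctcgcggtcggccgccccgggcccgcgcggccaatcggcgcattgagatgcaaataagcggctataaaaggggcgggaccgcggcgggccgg

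In the HES1 promoter TGGGAA matched at -84 to -79 and at -70 to -65 relative to the start site, and the match nearer the 5′ end was part of GTGGGAA. The HEYL promoter held TGGGAA at -99 to -94, and GTGGGAA on the opposite strand at -178 to -172, which contains a further TGGGAA. No match was found in the 300 bases of HES6, NOTCH1, NOTCH2, NOTCH3, JAG1 or JAG2, a statement about these letters in this window alone. HEY1 and DLL1 had no entry, so their promoters were not searched. Among all 35116 promoters of the table, 24% held TGGGAA and 6.25% held GTGGGAA on either strand, so lacking a match was common. Every GTGGGAA match contains a TGGGAA match, so the shares overlap.

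The siRNA check and the identity of the cells came first. H3F3A had 280, 304 and 264 counts in H3F3A siRNA libraries, against 8571 and 7983 in scrambled libraries, and fell 29.7-fold (log2 fold change -4.89, edgeR adjusted p = 9.04e-21), while H3F3B had a log2 fold change of -0.00 (edgeR adjusted p = 0.988). Libraries held 28493573 to 30705963 assigned counts. The muscle factor MYOD1 stood at 1057 to 1125 CPM (counts scaled to a common library size, with TMM factors) after H3F3A siRNA and at 1193 and 1488 CPM with scrambled siRNA (log2 fold change -0.29, edgeR adjusted p = 0.0654). The other 3 markers of the tumour were expressed as well. The muscle filament gene DES stood at 661 to 693 CPM after H3F3A siRNA and at 742 and 928 CPM with scrambled siRNA (log2 fold change -0.31, edgeR adjusted p = 0.0501), and the muscle factor MYOG at 234 to 236 CPM after H3F3A siRNA and at 224 and 256 CPM with scrambled siRNA (log2 fold change -0.03, edgeR adjusted p = 0.885). TFAP2B, a marker of fusion-positive tumours, stood at 78.4 to 81.5 CPM after H3F3A siRNA and at 56.4 and 57.1 CPM with scrambled siRNA, and was the only called gene of the 4 (log2 fold change 0.49, edgeR adjusted p = 0.0013). Of 5 markers each, endothelium summed to 2.23 to 2.72 CPM after H3F3A siRNA and 2.64 to 3.27 CPM with scrambled siRNA, and none of the 2 tested was called. Epithelium summed to 5.34 to 6.16 CPM after H3F3A siRNA and 5.99 to 6.79 CPM with scrambled siRNA, again with none of 2 tested called. Immune markers summed to 4.79 to 5.53 CPM after H3F3A siRNA and 4.55 to 5.55 CPM with scrambled siRNA, with none of 3 tested called and PTPRC at 0 counts in 4 of the 5 libraries. Of 5 fibroblast markers 2 had enough reads to be tested, and PDGFRB was called (1.28-fold lower, edgeR adjusted p = 0.0162, and 0.0586 with GC correction), while COL3A1 was not. That list summed to 1204 to 1259 CPM after H3F3A siRNA and 1177 to 1289 CPM with scrambled siRNA, nearly all of it COL3A1, and its part in the Notch values was not tested. Library composition differed in GC content: per 10 points of transcript GC, log2 CPM shifted by -0.0588, -0.0393 and -0.0398 in H3F3A siRNA replicates 1, 2 and 3, and by 0.144 and -0.00638 in scrambled replicates 1 and 3. Scrambled replicate 1 thus stood apart, and the fold change of each tested Notch gene is given with and without a correction for GC. With that correction the log2 fold changes of MYOD1 and DES were -0.07 and -0.12 (edgeR adjusted p = 0.706 and 0.382).

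Of the 9 Notch genes with enough reads to be tested, HES6 and JAG2 were lower after H3F3A siRNA, none was higher and 7 were not called (edgeR quasi-likelihood test, adjusted p under 0.05 over all genes tested). Over all 15859 genes tested, 3.2% were called, 2.69% lower and 0.504% higher. The log2 fold changes of all 9 lay below 0, from -0.46 to -0.02 with a median of -0.12, where all genes tested had a median of 0.01. These 9 transcripts were also rich in G and C, with a median GC content of 59.1% against 48.9% over all genes tested. With GC correction none of the 9 was called, against 1.87% of all genes (1.35% lower and 0.523% higher), and their median was -0.05. The libraries of the 2 groups did not overlap for HES6 and JAG2, both lower, against 17.1% of all genes tested that were apart and lower and 16% that were apart and higher. With GC correction HES6, JAG2 and HEY1 were apart and lower and HEYL apart and higher, against 15.5% and 13.9% of all genes, so lack of overlap was common among all genes. In bulk RNA, fewer cells expressing a gene and less of its RNA per cell cannot be told apart.

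**Figure D1:**
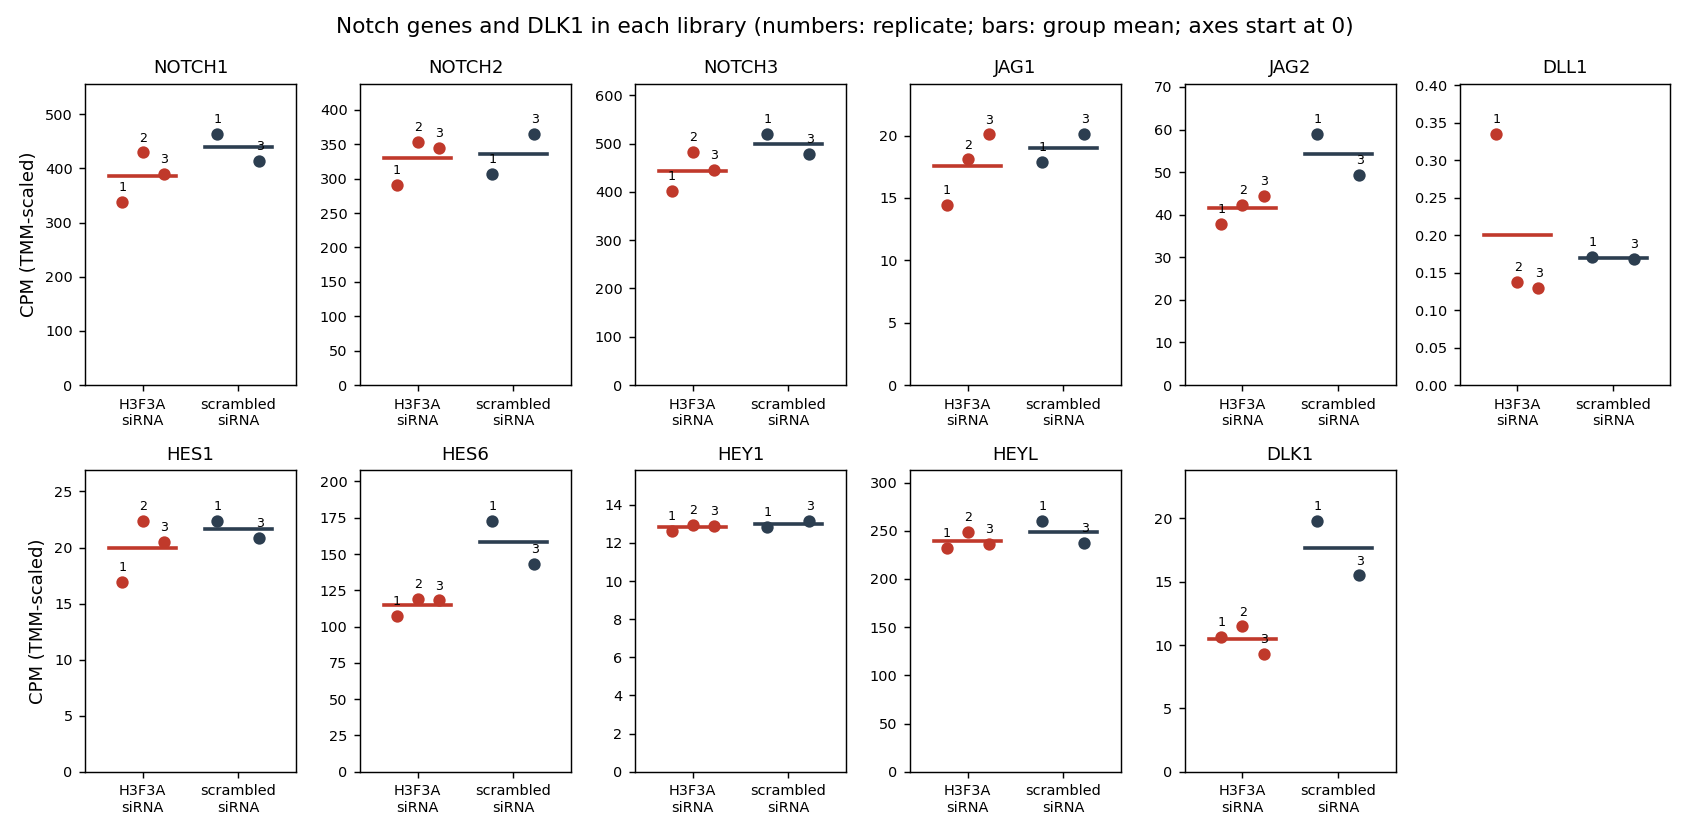
Expression in CPM, scaled by TMM, of the 10 Notch genes and DLK1 in each of the 3 H3F3A siRNA libraries (left) and 2 scrambled libraries (right). Points carry the replicate number and bars are group means. The groups lie apart for HES6, JAG2 and DLK1, while DLL1 stays below 0.34 CPM in every library.

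The genes grouped as targets were led by HEYL and HES6. HES6, an atypical HES factor that opposes HES1 and promotes myogenic differentiation in mouse cells, had 107, 119 and 118 CPM in H3F3A siRNA libraries, against 173 and 143 CPM in scrambled libraries. The groups did not overlap, and scrambled replicate 1 was the highest of the 5. HES6 averaged 115 ± 6.35 CPM after H3F3A siRNA (SD, n = 3) and 158 ± 21.2 CPM with scrambled siRNA (SD, n = 2), and it fell 1.38-fold, a log2 fold change of -0.46 (SE 0.0838, edgeR adjusted p = 0.0038).

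The fall of HES6 became smaller when GC content was taken into account. Its transcript has a GC content of 68.4%, the highest of the 10 genes. After correction HES6 stood at 119, 124 and 127 CPM in H3F3A siRNA libraries, against 140 and 143 CPM in scrambled libraries, so the groups still did not overlap. The corrected log2 fold change was -0.20, with a 95% interval of -0.30 to -0.09 and an edgeR adjusted p = 0.0642. Without scrambled replicate 1, and with no GC correction, HES6 was still called at a log2 fold change of -0.32 (edgeR adjusted p = 0.0414). Without H3F3A siRNA replicate 1 it was not called (log2 fold change -0.41, edgeR adjusted p = 0.127).

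HES1, the archetypal repressor downstream of Notch, did not pass the test. It had 16.9, 22.4 and 20.5 CPM in H3F3A siRNA libraries, against 22.4 and 20.9 CPM in scrambled libraries. H3F3A siRNA replicate 1 alone was low, and the other libraries of both groups lay together. Its log2 fold change was -0.12 with a 95% interval of -0.34 to 0.10 (edgeR adjusted p = 0.615), and -0.12 with GC correction (edgeR adjusted p = 0.669).

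HEY1, a repressor of the Hairy/E(spl)-related family, was the steadiest of the 10 genes across libraries. It had 12.6, 13 and 12.9 CPM in H3F3A siRNA libraries, against 12.8 and 13.2 CPM in scrambled libraries. Again the groups overlapped, and the log2 fold change was -0.02 with a 95% interval of -0.22 to 0.19 (edgeR adjusted p = 0.953). The GC-corrected value was -0.05 (edgeR adjusted p = 0.881).

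HEYL, a further repressor of that family, was the most abundant target by reads. It had 232, 249 and 236 CPM in H3F3A siRNA libraries, against 261 and 237 CPM in scrambled libraries, and the groups overlapped. HEYL had a log2 fold change of -0.06 with a 95% interval of -0.21 to 0.10 (edgeR adjusted p = 0.764). With GC correction it was 0.07 (edgeR adjusted p = 0.641), so the sign depended on the correction. For HES1, HEY1 and HEYL the intervals thus leave room for falls of up to 0.34, 0.22 and 0.21 on the log2 scale. They also leave room for rises of up to 0.10, 0.19 and 0.10. With GC correction the 3 intervals ran from -0.33 to 0.08, from -0.23 to 0.13 and from -0.04 to 0.18.

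**Figure D2:**
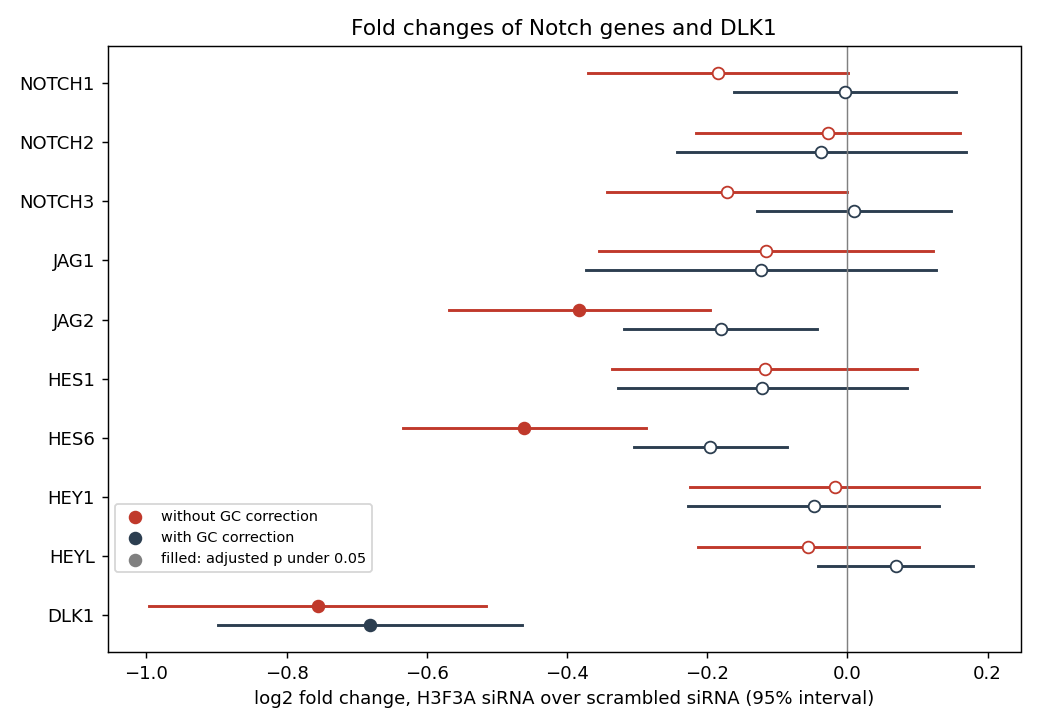
Log2 fold changes (H3F3A siRNA over scrambled siRNA) with 95% intervals for the 9 tested Notch genes and DLK1, without and with correction for GC content. Filled points have an adjusted p under 0.05. HES6 and JAG2 are filled without the correction only, and DLK1 is filled in both.

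DLK1 itself fell in the same libraries by more than any of the 9 tested Notch genes. It had 10.6, 11.5 and 9.29 CPM in H3F3A siRNA libraries, against 19.8 and 15.5 CPM in scrambled libraries, and no library of one group reached the other. DLK1 fell 1.69-fold (log2 fold change -0.76 with an SE of 0.116, edgeR adjusted p = 0.00133), and its log2 fold change was -0.68 with GC correction (edgeR adjusted p = 0.00188). The 95% interval of DLK1 ended at -0.52, below the intervals of HES1, HEY1 and HEYL, but differences between genes were not themselves tested. DLK1 was not called without H3F3A siRNA replicate 1 (edgeR adjusted p = 0.0739), nor with GC correction and no scrambled replicate 1 (edgeR adjusted p = 0.0535). In cells where DLK1 was lower, then, HES1, HEY1 and HEYL were not called. Of the 4 genes followed as targets only HES6 was called and lower, where 2.69% of all genes tested were. That call was not kept with GC correction alone. HES6 is the atypical factor that opposes HES1. Whether it answers to Notch in these cells was not tested.

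Among the ligands, JAG2 fell and JAG1 did not pass. JAG2, a Jagged-family ligand, had 37.8, 42.4 and 44.4 CPM in H3F3A siRNA libraries, against 59 and 49.3 CPM in scrambled libraries. The groups did not overlap, with scrambled replicate 1 again the highest. JAG2 averaged 41.5 ± 3.36 CPM after H3F3A siRNA (SD, n = 3) and 54.2 ± 6.81 CPM with scrambled siRNA (SD, n = 2), and it fell 1.30-fold, a log2 fold change of -0.38 (SE 0.0899, edgeR adjusted p = 0.021).

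The JAG2 transcript has a GC content of 64%, and its call was kept in fewer of the other settings than that of HES6. The GC-corrected log2 fold change was -0.18, with a 95% interval of -0.32 to -0.04 (edgeR adjusted p = 0.2). Without scrambled replicate 1 it was -0.25 (edgeR adjusted p = 0.272), without H3F3A siRNA replicate 1 it was -0.32 (edgeR adjusted p = 0.22), and without H3F3A siRNA replicate 2 it was -0.40 (edgeR adjusted p = 0.073).

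JAG1, the other Jagged-family ligand, had 14.4, 18.1 and 20.1 CPM in H3F3A siRNA libraries, against 17.9 and 20.1 CPM in scrambled libraries. H3F3A siRNA replicate 3 was as high as scrambled replicate 3, and the groups overlapped. The log2 fold change was -0.12 with a 95% interval of -0.35 to 0.12 (edgeR adjusted p = 0.659), and -0.12 after GC correction (edgeR adjusted p = 0.735). DLL1, a Delta-like ligand, had 10, 4 and 4 counts in H3F3A siRNA libraries, against 5 and 5 counts in scrambled libraries. So few reads did not pass the filter, and no difference in DLL1 was detectable at this depth. A numbered copy of DLL1 in the tables had no counts.

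All 3 receptors were well expressed and none was called. NOTCH3, which is itself a Notch target in vascular smooth muscle, had 403, 483 and 445 CPM in H3F3A siRNA libraries, against 520 and 479 CPM in scrambled libraries. H3F3A siRNA replicate 2 lay above scrambled replicate 3, so the groups overlapped. Its log2 fold change was -0.17 (95% interval -0.34 to -0.00, edgeR adjusted p = 0.294), and 0.01 with GC correction (edgeR adjusted p = 0.977). NOTCH1 had 338, 430 and 390 CPM in H3F3A siRNA libraries, against 464 and 414 CPM in scrambled libraries, and again the groups overlapped. NOTCH1 had a log2 fold change of -0.18 (95% interval -0.37 to 0.00, edgeR adjusted p = 0.3), and -0.00 with GC correction (edgeR adjusted p = 0.994). Both receptors have transcripts of about the same GC content, 63.1% for NOTCH3 and 62.9% for NOTCH1.

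NOTCH2 has a transcript with a GC content of 49.4%, and its fold change was nearly the same with and without GC correction. It had 291, 354 and 345 CPM in H3F3A siRNA libraries, against 307 and 365 CPM in scrambled libraries, and the groups were intermixed. The log2 fold change was -0.03 with a 95% interval of -0.22 to 0.16 (edgeR adjusted p = 0.915), and -0.04 with GC correction. NOTCH2 has near-identical partial copies that can share its reads, so its value is uncertain. The 4 copies in the tables, NOTCH2NLA, NOTCH2NLB, NOTCH2NLC and NOTCH2NLR, summed to 17.5 to 22.4 CPM in H3F3A siRNA libraries, against 23.1 CPM in each scrambled library, and none was called.

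**Figure D3:**
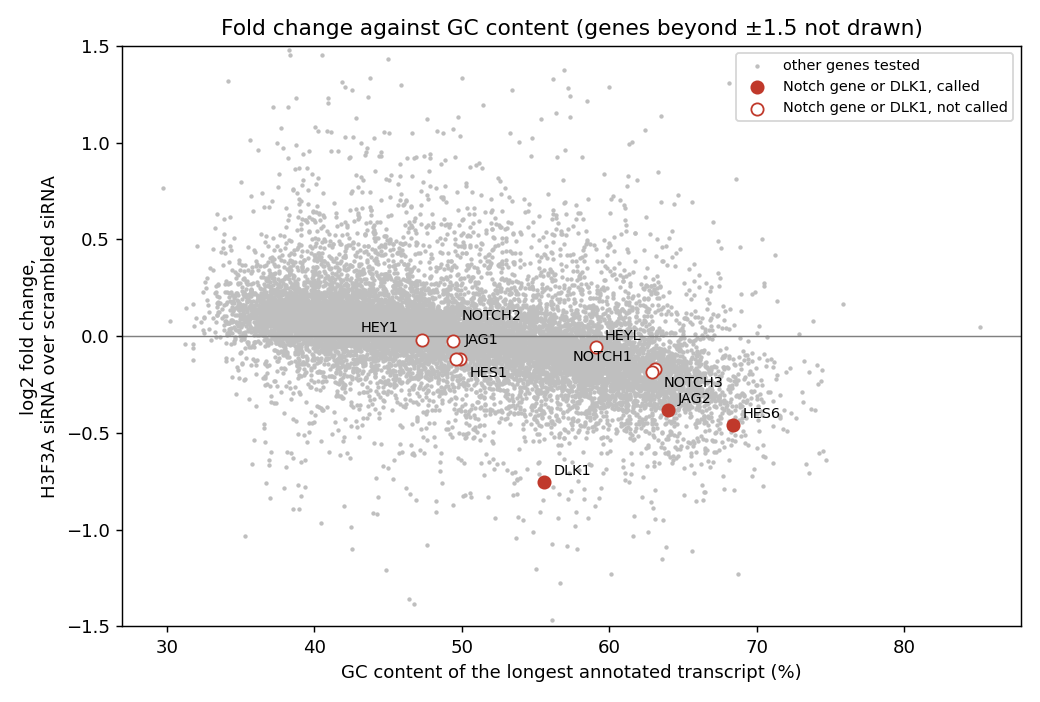
Log2 fold change (H3F3A siRNA over scrambled siRNA, y axis) against the GC content of the longest annotated transcript (x axis, percent) for all genes tested that have a GC value (grey) and for the Notch genes and DLK1 (red, filled where called). The cloud tilts downward toward high GC content, where HES6 (68.4%) and JAG2 (64%) lie, while DLK1 lies lower at 55.6%.

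A single library set the low end of every tested Notch gene. H3F3A siRNA replicate 1 was the lowest of the 5 libraries in all 9 of them, whereas it was the lowest in 20.4% of all genes tested. Scrambled replicate 1 was the highest in 5 of the 9 and in 31.1% of all genes tested. The genes do not vary independently within a library, and the source of this shared low value was not tested. The sum over all 10 genes, mostly receptor reads, was 1454 to 1731 CPM in H3F3A siRNA libraries, against 1742 and 1837 CPM in scrambled libraries. These sums were not corrected for GC content, and their difference was not tested. NOTCH3, the largest part, overlapped between groups after correction, at 430, 503 and 466 CPM in H3F3A siRNA libraries, against 444 and 483 CPM in scrambled libraries.

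Levels were compared between genes as CPM per kilobase of the longest annotated transcript, since longer transcripts collect more reads. HES6 led with 71.7 CPM per kilobase after H3F3A siRNA and 98.8 with scrambled siRNA, next to HEYL with 65.4 after H3F3A siRNA and 68 with scrambled siRNA. The receptors came next. NOTCH3 had 51.2 CPM per kilobase after H3F3A siRNA and 57.7 with scrambled siRNA, NOTCH1 had 41.5 after H3F3A siRNA and 47.1 with scrambled siRNA, and NOTCH2 had 29 after H3F3A siRNA and 29.5 with scrambled siRNA. HES1 stood below them at 12.6 CPM per kilobase after H3F3A siRNA and 13.7 with scrambled siRNA, and HEY1 at 5.59 after H3F3A siRNA and 5.66 with scrambled siRNA. The ligands were low, with JAG2 at 7.12 CPM per kilobase after H3F3A siRNA and 9.28 with scrambled siRNA, JAG1 at 2.95 after H3F3A siRNA and 3.2 with scrambled siRNA, and DLL1 at 0.0633 after H3F3A siRNA and 0.0535 with scrambled siRNA. Over the 5 libraries HES6 overlapped HEYL and NOTCH3 overlapped NOTCH1, and the other neighbours in the order did not overlap. The ratio of HES6 to HES1 counts was 6.35, 5.31 and 5.75 in H3F3A siRNA libraries, against 7.73 and 6.85 in scrambled libraries. The groups did not overlap, but these counts were not corrected for GC content, which is 68.4% for HES6 and 49.9% for HES1. The ratio therefore carries the GC trend of each library, and its difference between groups was not tested, with or without GC correction. The ratio of HEYL to HES1 counts was 13.7, 11.1 and 11.5 in H3F3A siRNA libraries, against 11.6 and 11.4 in scrambled libraries, and the groups overlapped.

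The tested genes whose profile lay closest to that of HES1 were PLEKHM1P1, PKD1P6-NPIPP1_1 and LOC652276, out of 9716 genes that averaged 8 CPM or more. Their log2 CPM, centred on the mean of the 5 libraries, differed from that of HES1 by a root mean square of 0.0204, 0.0265 and 0.0289. None of them was called, and like HES1 they were lowest in H3F3A siRNA replicate 1. They were picked for their likeness to HES1 in these same libraries, so both features follow from the choice. PKD1P6-NPIPP1_1 is a numbered copy, and reads of such genes can be split between copies.

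The rest of the pathway was described from 75 further genes, of which 67 were tested. Calls were made for 4 of the 67, all lower, where 2.69% of all genes tested were called lower, and the median log2 fold change of the 67 was -0.09. With GC correction 1 of the 67 fell and none rose, where 1.35% of all genes were called lower, and the median was -0.04. No gene of the proteases that cut Notch receptors was called among 9, where ADAM10, the metalloprotease of receptor shedding, had 277, 272 and 274 CPM in H3F3A siRNA libraries, against 252 and 294 CPM in scrambled libraries.

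LFNG, a fringe glycosyltransferase that tunes which ligands a Notch receptor answers to, had 102, 103 and 99 CPM in H3F3A siRNA libraries, against 132 and 124 CPM in scrambled libraries. It fell 1.27-fold (log2 fold change -0.34, edgeR adjusted p = 0.013) and was the only called gene of 8 for receptor glycosylation. With GC correction its log2 fold change was -0.16 (edgeR adjusted p = 0.176). POFUT1, the O-fucosyltransferase that acts before the fringe enzymes and the most abundant of the 8, had a log2 fold change of -0.16 (edgeR adjusted p = 0.274).

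DTX2, a Deltex ubiquitin ligase of the pathway, fell 1.27-fold (edgeR adjusted p = 0.0437), alone among 13 tested genes of endocytosis and turnover. It had 16.3, 16.1 and 16.3 CPM in H3F3A siRNA libraries, against 22 and 19.4 CPM in scrambled libraries, but after GC correction DTX2 no longer passed (edgeR adjusted p = 0.325). The most abundant gene of that list, the ligand-activating ubiquitin ligase MIB1, had a log2 fold change of 0.02 (edgeR adjusted p = 0.933).

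None of 21 tested genes of the nuclear complex and its corepressors was called. RBPJ, the DNA-binding protein of the complex, had 174, 175 and 177 CPM in H3F3A siRNA libraries, against 141 and 166 CPM in scrambled libraries (log2 fold change 0.19, edgeR adjusted p = 0.202).

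**Figure D4:**
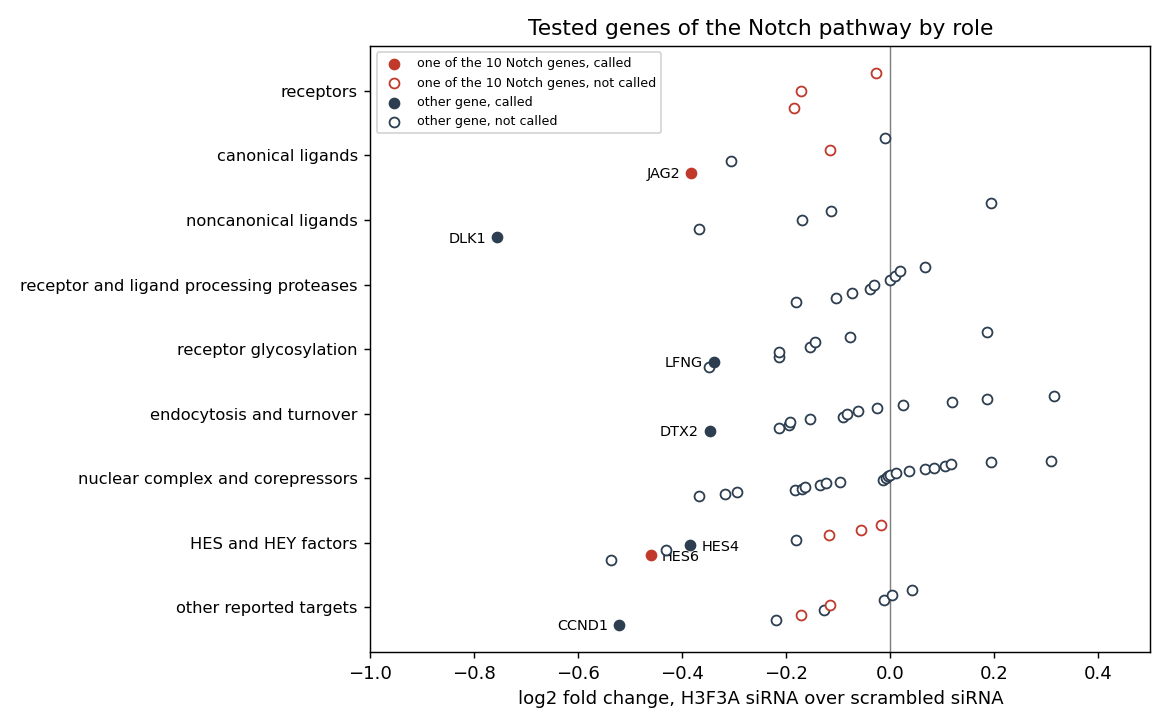
Log2 fold changes (x axis, H3F3A siRNA over scrambled siRNA) of tested Notch pathway genes by role, without GC correction. Filled points have an adjusted p under 0.05 and are named, and a gene that stands in more than 1 list is drawn in each. Called genes are JAG2, DLK1, LFNG, DTX2, HES4, HES6 and CCND1, all to the left of 0.

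Among the 10 genes of the HES and HEY families, 8 were tested, HES6 and HES4 fell and none rose. Over all genes tested 2.69% were called lower and 0.504% higher. With GC correction none of the 8 was called, where 1.35% of all genes were called lower. Their corrected log2 fold changes ran from -0.56 to 0.07. HES4, a Notch target of the family, had 21.7, 27.4 and 21 CPM in H3F3A siRNA libraries, against 32.1 and 28.8 CPM in scrambled libraries (1.31-fold lower, edgeR adjusted p = 0.0437). Its transcript has a GC content of 73.9%, and its GC-corrected log2 fold change was -0.05 (edgeR adjusted p = 0.883). HES5 and NOTCH4 had no counts in any library, which allows at most 0.0971 to 0.103 CPM in an H3F3A siRNA library and 0.101 to 0.103 CPM in a scrambled library, from 3 counts and counting error only.

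Of other reported Notch targets, CCND1, the cyclin of the G1 phase, was the 1 called gene of 8 tested. It had 75.2, 71.7 and 79.9 CPM in H3F3A siRNA libraries, against 110 and 107 CPM in scrambled libraries. The log2 fold change was -0.52 with and without GC correction (edgeR adjusted p = 8.83e-05 with it and 0.000839 without it). CCND1 takes inputs from many pathways besides Notch. NRARP, a direct Notch target that feeds back on the receptor, had 2.21, 1.79 and 2.1 CPM in H3F3A siRNA libraries, against 2.26 and 2.19 CPM in scrambled libraries (log2 fold change -0.13, edgeR adjusted p = 0.802). With GC correction NRARP was at 0.12 (edgeR adjusted p = 0.87), on 52 to 66 counts per library, so its sign depended on the correction. MYC had a log2 fold change of -0.22 (edgeR adjusted p = 0.147).

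The calls of HES6 and JAG2 were repeated under 13 other settings, which differed widely in how many genes they called. Both were called with DESeq2 (4.92% of all genes called), upper-quartile scaling (2.77%), total-count scaling (2.48%) and no filter on low counts (2.8%). They were also called with the replicate number as a block (3.62%, and 6.71% with GC correction added), without H3F3A siRNA replicate 3 (1.97%) and without scrambled replicate 3 (15.1%). HES6 alone was called without H3F3A siRNA replicate 2 (1.13%) and without scrambled replicate 1 (0.623%). Neither was called without H3F3A siRNA replicate 1 (0.0958%), with GC correction, or with GC correction and no scrambled replicate 1 (0.44%). No other of the 9 tested Notch genes was called in any of these 13 settings.

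**Figure D5:**
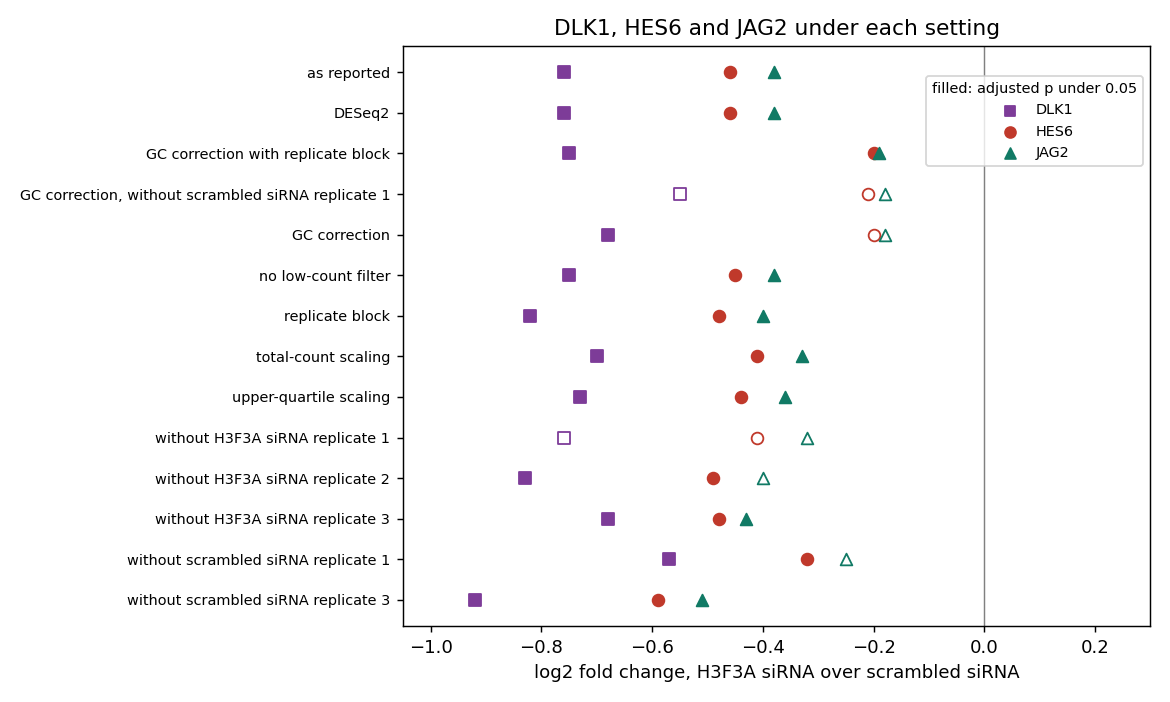
Log2 fold changes (x axis, H3F3A siRNA over scrambled siRNA) of DLK1, HES6 and JAG2 as reported and under each of 13 other settings. Filled points have an adjusted p under 0.05. All values lie below 0, HES6 is called in 10 of the 13 other settings, JAG2 in 8 and DLK1 in 11.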

How the data were processed

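Poly-A RNA was captured on poly-T beads and primed with random hexamers, per the labels' protocols. The authors deposited unnormalized gene counts as STAR writes them, and the submitters' processing notes name STAR 2.5, HTSeq 0.6.1 and the build hg19 without roles. Unstranded counts were used. For the genes followed, the stranded columns summed to at most 0.0522% more, a measure of reads lost where a gene overlaps another on the opposite strand. Lines that name no gene were left out (4.84% to 5.48% unmapped, 6.28% to 6.42% multimapping, 9.17% to 10.2% without a feature, 4.45% to 4.56% ambiguous). Genes were filtered with filterByExpr (minimum count 10, minimum total 15), scaled by TMM and tested with edgeR 4.0.16 (quasi-likelihood, robust, no covariates) in R 4.3.3, with Benjamini-Hochberg adjustment over 15859 genes and a threshold of 0.05. The test was checked on simulated data. A GC trend was simulated only for the fit with GC correction, so the check does not cover calls that such a trend causes without correction. SEs were derived from the F statistic. For the GC correction, a natural spline (5 degrees of freedom) of each library's deviation in log2 CPM over GC content was removed as an offset. GC content and length came from the longest GENCODE v29 transcript (protein-coding first), known for 90.6% of tested genes. GC-corrected p-values treat that spline as known. Alternatives were DESeq2 1.42.0, other scalings, no filter, each library left out and a replicate block. Promoters came from RefSeq (GRCh38.p14). Named genes were the members, DLK1, H3F3A, H3F3B, called list genes, the most abundant gene of each list and the 3 profiles nearest HES1. Other genes were named after their values were seen. A gene that this rule gave is not reported here. The members and lists were chosen with earlier results of these data known.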

Additional observations from a re-analysis of the deposited data

How the results depend on the processing

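The fall of HES6 and JAG2 kept its direction in all 13 alternatives but not its call. With GC correction 0 of the 9 tested Notch genes were called, at log2 fold changes of -0.20 for HES6 and -0.18 for JAG2. With GC correction and without scrambled replicate 1 again 0 were called, at -0.21 and -0.18. When 1 library was left out, 0 to 2 were called, with HES6 between -0.59 and -0.32 and JAG2 between -0.51 and -0.25. Of the 7 genes that were never called, NOTCH1 and HES1 kept their sign in all 13 alternatives (-0.27 to -0.00 and -0.21 to -0.01), and the other 5 changed sign in at least 1. NOTCH2 was 0.02 with total-count scaling and between -0.15 and 0.10 with a library left out, and JAG1 was between -0.23 and 0.01 with a library left out. NOTCH3 was 0.01 with GC correction. HEY1 was 0.03 with total-count scaling, 0.00 with upper-quartile scaling and between -0.04 and 0.00 with a library left out. HEYL was 0.07 with GC correction, 0.04 with GC correction and the replicate block, 0.05 with GC correction and without scrambled replicate 1, and between -0.12 and 0.01 with a library left out. Total-count scaling shifted the median of all genes tested to 0.06.

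Of the further pathway genes, 4 were called lower as reported, 1 with GC correction, 2 with upper-quartile or total-count scaling, 10 with GC correction and the replicate block, 1 with GC correction and without scrambled replicate 1, and 0 to 12 with a library left out. Higher calls numbered 0 as reported, 2 with GC correction and the replicate block, and 0 to 5 with a library left out. Over all genes, 507 were called as reported (80 higher and 427 lower). There were 297 calls with GC correction (214 lower), 792 without the filter on low counts (153 higher), 1064 with GC correction and the replicate block (389 higher and 675 lower) and 72 with GC correction and without scrambled replicate 1 (17 higher and 55 lower). Total-count scaling gave 138 higher and 255 lower, and upper-quartile scaling gave 116 higher and 323 lower. Leaving out a library gave 15 to 2481 calls (6 to 744 higher and 9 to 1737 lower). The lowest count came without H3F3A siRNA replicate 1 and the highest without scrambled replicate 3.

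Replicate numbers 1 and 3 occur in both groups, but no label says that they pair libraries. Deviations from the group means correlated at 0.112 between the libraries numbered 1 and at 0.0487 between those numbered 3. Between libraries of unlike number the values were -0.112, -0.068, 0.068 and -0.0487. The deviations of 2 scrambled libraries mirror each other, so these correlations cannot decide whether libraries are paired. With the replicate block 574 genes were called, with HES6 at -0.48 and JAG2 at -0.40, both called. With the block and GC correction together both were called as well (edgeR adjusted p = 0.00171 for HES6 and 0.0425 for JAG2). In these blocked fits 1 residual degree of freedom was left. HES6 and JAG2 rested on 1129 to 5046 counts per library and on 2 scrambled libraries, 1 of which stood apart in its GC trend. DLL1, with 4 to 10 counts per library, was too low to be tested and has no alternatives.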
